A study of Mus musculus with 19 samples.

Results

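Tumours carrying a knockdown of lactate dehydrogenase A (LDHA-KD) in mice given control IgG were compared with control tumours in mice given an antibody against CTLA-4. The comparison took 10 of the 19 sequenced samples, 5 in each group, chosen by their labels, and covered all genes. Every tumour came from the mouse mammary carcinoma line 4T1, implanted as 1000000 cells in syngeneic BALB/cAnN mice, and its poly(A) RNA was sequenced. The knockdown tumours came from the line 4T1-KD and the control tumours from the line 4T1-Sc. How the knockdown was made and whether either line is a single clone was not given in the sources used here. The antibody or IgG was first given 3 days after implantation, in 3 doses 3 days apart. Control tumours with IgG (n = 4, replicates 1, 3, 4 and 5) had neither the knockdown nor the antibody, and their values are given last as background to both interventions.

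CTLA-4 is an inhibitory receptor on T cells that takes up the B7 ligands CD80 and CD86, and regulatory T cells carry much of it. Blocking it releases T cell activation and, with some antibodies, removes regulatory T cells. LDHA turns pyruvate into lactate at the end of glycolysis, and lactate released by tumour cells acidifies the tumour and can restrain effector lymphocytes. The study's title concerns the stability of regulatory T cells in tumours with low glycolysis, and the direct comparison asks how the RNA of tumours with either single intervention differs. It equals the difference of the LDHA-KD effect under IgG minus the anti-CTLA-4 effect in control tumours, because the control IgG group cancels. The groups differ in the cell line as well as in the antibody, so effects of the knockdown, of the line and of the treatment cannot be told apart within it.

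Between 31783272 and 43266699 reads were counted in genes per sample. The first principal component (the main axis of variation) of the 10 samples held 54.0% of the variance and separated the groups. On the second component of all 19 samples, replicates 3 and 5 of the control anti-CTLA-4 group stood away from the other controls (-32.1 and -31.6). Values without both are given where a call or count named here was lost. Expression is given in CPM, the reads of a gene per 1000000 reads of the scaled library, which compare samples for 1 gene but not levels between genes. No label says that replicates came from separate animals, so each p-value speaks only to the spread among these samples. In bulk tumour RNA, fewer cells of a type and less RNA per cell cannot be told apart.

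The targeted gene followed the labels. Ldha (ENSMUSG00000063229, chr7:46841475-46855627, plus strand, GRCm38) stood at 478, 469.9, 452, 506 and 519 CPM in LDHA-KD IgG tumours, against 2244, 1524, 1955, 1910.3 and 1935 CPM in control anti-CTLA-4 tumours. Control IgG tumours had 1926, 1624, 1568 and 1283 CPM. The groups did not overlap, and the log2 fold change was -1.98 (SE 0.11, adjusted p = 2.1e-10 in edgeR's quasi-likelihood F test with Benjamini-Hochberg adjustment, used for every adjusted p of a gene here). Ldhb, the subunit that favours the reverse reaction, averaged 6.65 ± 1.46 CPM in LDHA-KD IgG tumours and 5.54 ± 1.01 CPM in control anti-CTLA-4 tumours (SD, n = 5 each) and did not pass the test (adjusted p = 0.271). The epithelial keratins Krt8 and Krt18, which mark the carcinoma cells, were present at 1122 and 1423 CPM on average in LDHA-KD IgG tumours and 1191 and 1554 CPM in control anti-CTLA-4 tumours. Of the 12 epithelial genes listed, these keratins included, 6 were lower in LDHA-KD IgG tumours and 1 higher (adjusted p under 0.05). Their summed level ran from 3253.8 to 3508.6 CPM in LDHA-KD IgG tumours and 4204.2 to 5162.5 CPM in control anti-CTLA-4 tumours. Control IgG tumours had 4298.6 to 5488 CPM.

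Of 16763 genes tested, 3386 were higher and 3392 lower in LDHA-KD IgG tumours at an adjusted p under 0.05, so 40.4% passed, 20.2% in each direction. More than 2-fold differences were found for 808 of the higher and 755 of the lower genes, and more than 4-fold for 114 and 141. The 25 sample pairs all pointed the same way for 2624 genes higher (15.7%) and 2619 genes lower (15.6%), passed or not. The single interventions against the control IgG background gave 5752 genes called for LDHA-KD under IgG (34.3%) and 0 for anti-CTLA-4 in control tumours. In that second comparison 1346 genes had an unadjusted p under 0.05, DESeq2 called 11 and limma voom 0. The median log2 fold change of all genes tested was -0.0099 in the direct comparison.

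Most tested members of the T cell, regulatory T cell, checkpoint, natural killer, macrophage, mast cell and MHC class II lists were higher in LDHA-KD IgG tumours, and most glycolysis and hypoxia genes lower, as the plot of list members shows. The cytotoxic and B cell lists had at most 1 in 2 members higher, and the interferon response lists had nearly no member past the test. These lists are described by their counts beside the background of 20.2% in each direction and carry no test of their own.

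**Figure D1:**
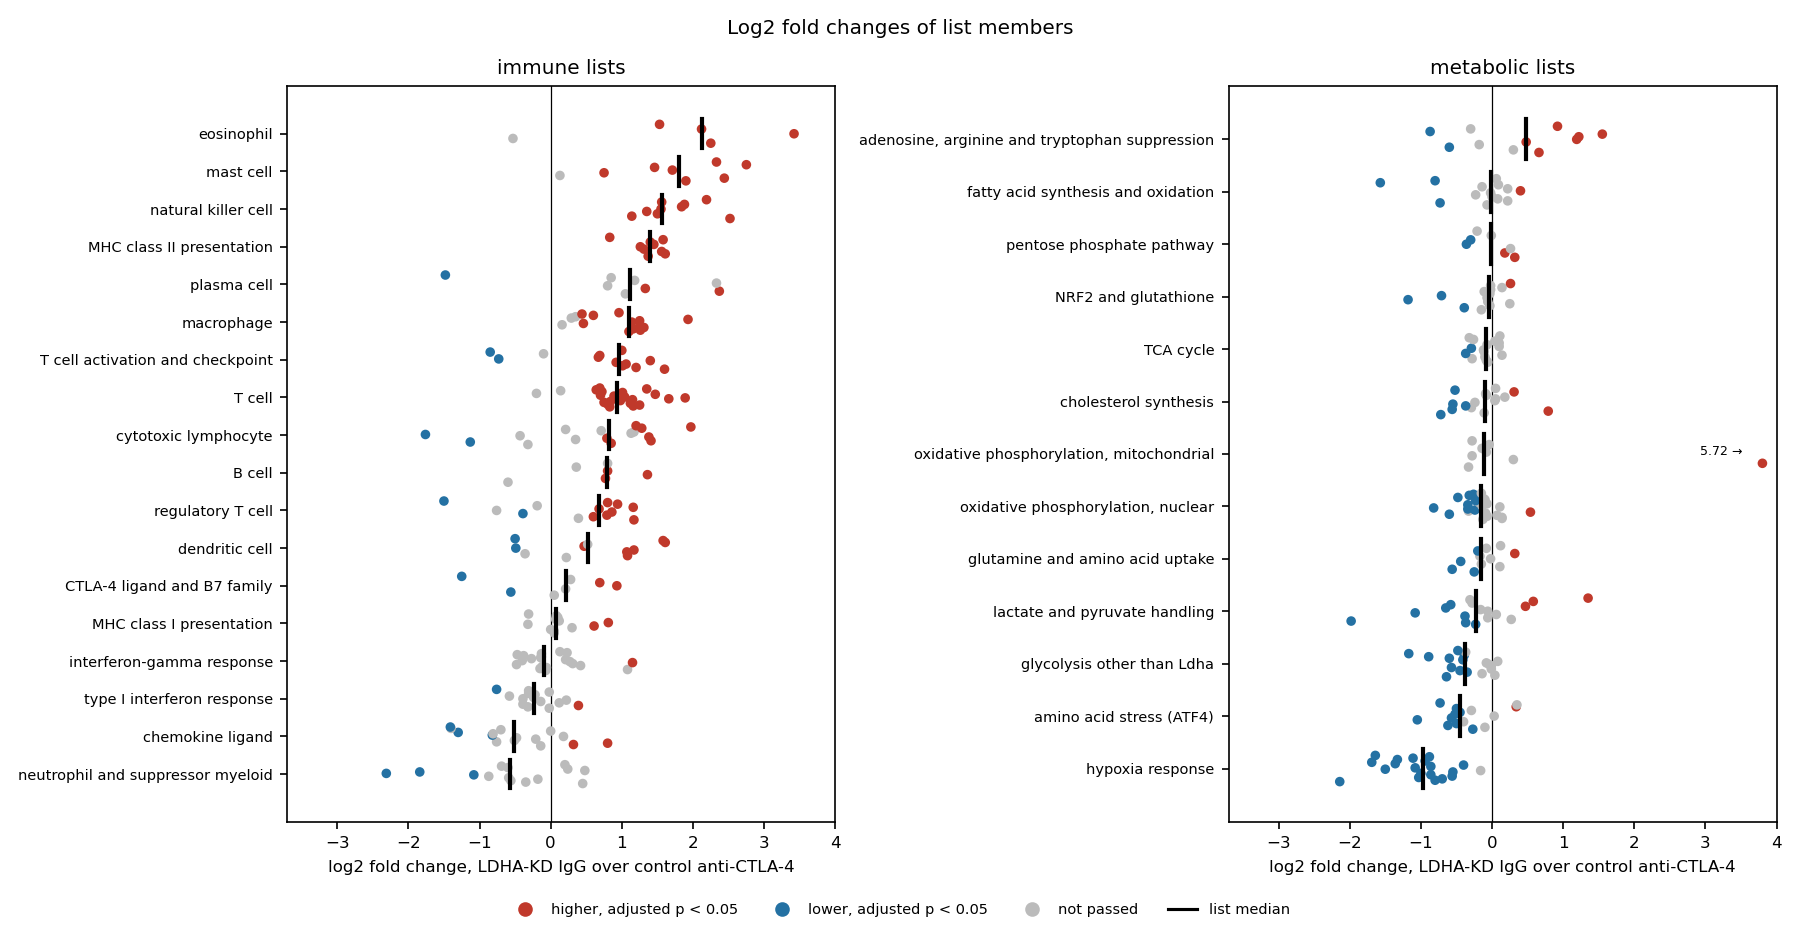
Log2 fold change of every tested member of the immune and metabolic lists, LDHA-KD IgG (n = 5) over control anti-CTLA-4 tumours (n = 5), 1 point per gene and 1 row per list, with the list median as a bar. Coloured points passed an adjusted p under 0.05 and grey points did not. The point of mt-Co3, at 5.72, is drawn at the right edge. The T cell, natural killer, macrophage, mast cell and MHC class II rows lie mostly right of 0, and the hypoxia row left of it.

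T cell RNA was higher in the knockdown tumours. Of 22 genes of the T cell list, 20 were higher and 0 lower, with a median log2 fold change of 0.94. Trbc1, a T cell receptor constant region, and Tcf7, a transcription factor of naive and memory T cells, did not pass (log2 fold change 0.14 and -0.20). Cd3e (chr9:44998740-45009627, minus strand), a signalling chain of the T cell receptor complex, stood at 4.95, 4.64, 6.30, 2.59 and 5.88 CPM in LDHA-KD IgG tumours, against 1.76, 2.04, 3.32, 1.45 and 2.65 CPM in control anti-CTLA-4 tumours. Its lowest knockdown sample lay below the 2 highest controls, and the log2 fold change was 1.117 (SE 0.29, adjusted p = 0.00522). Control IgG tumours averaged 1.17 ± 0.524 CPM (n = 4), lower than either.

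Both coreceptor lineages took part, with the larger fold changes in the CD8 chains. Cd8a (chr6:71373427-71379173, plus strand) stood at 3.58, 4.51, 2.32, 2.44 and 4.19 CPM in LDHA-KD IgG tumours, against 0.852, 1.24, 0.778, 1.23 and 1.30 CPM in control anti-CTLA-4 tumours. The groups did not overlap (log2 fold change 1.66, SE 0.39, adjusted p = 0.00232). Cd8b1, its partner chain, had a log2 change of 1.89 (SE 0.33, adjusted p = 0.000183). Cd4, the coreceptor of helper and regulatory T cells, averaged 15.3 ± 2.94 CPM in LDHA-KD IgG tumours, 8.56 ± 2.56 CPM in control anti-CTLA-4 tumours and 4.09 ± 1.64 CPM in control IgG tumours, with a log2 fold change of 0.84 between the first pair (SE 0.26, adjusted p = 0.0134). The adaptor Sh2d2a, which binds the kinase LCK in activated T cells, had a log2 change of 1.47 (SE 0.25, adjusted p = 0.000125).

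Foxp3, which encodes the lineage factor of regulatory T cells (chrX:7573644-7595245, plus strand), stood at 3.89, 4.59, 5.72, 3.98 and 5.72 CPM in LDHA-KD IgG tumours, against 2.44, 2.93, 2.85, 1.90 and 3.68 CPM in control anti-CTLA-4 tumours. No knockdown sample was below the highest control anti-CTLA-4 sample. Control IgG tumours had 1.75, 2.58, 2.16 and 1.08 CPM. The log2 fold change was 0.79 (SE 0.28, adjusted p = 0.0325), but the adjusted p lay between 0.0517 and 0.0816 when LDHA-KD IgG replicate 3 or 5 or control anti-CTLA-4 replicate 1, 3 or 4 was left out, and at 0.0523 in limma voom. In the regulatory T cell list 8 of 13 genes were higher and 2, Tnfrsf9 and Ikzf2, lower, with a median of 0.68. The count of higher genes was 8 without control anti-CTLA-4 replicates 3 and 5, 5 without LDHA-KD IgG replicate 3, and 4 without LDHA-KD IgG replicate 5 or control anti-CTLA-4 replicate 1 or 4.

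Ccr8, a chemokine receptor carried by regulatory T cells in tumours, had a log2 change of 1.17 (SE 0.25, adjusted p = 0.000979), and Itgae, the integrin chain CD103, one of 1.16 (SE 0.21, adjusted p = 0.00024). Tnfrsf18 (GITR), a costimulatory receptor, averaged 9.16 ± 1.43 CPM in LDHA-KD IgG tumours and 4.78 ± 1.17 CPM in control anti-CTLA-4 tumours (log2 fold change 0.94, SE 0.19, adjusted p = 0.000554). Which cells of the bulk tumour made the RNA of Tnfrsf9 (4-1BB), also a costimulatory receptor, was not tested. Tnfrsf9 went the other way. It averaged 54.4 ± 4.62 CPM in LDHA-KD IgG tumours, 154 ± 42.0 CPM in control anti-CTLA-4 tumours and 86.3 ± 28.2 CPM in control IgG tumours (log2 fold change of the first pair -1.50, SE 0.24, adjusted p = 8.24e-05).

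Ctla4, the antibody's target, stood at 6.89, 7.20, 9.08, 9.54 and 10.0 CPM in LDHA-KD IgG tumours, against 6.17, 5.38, 6.25, 6.09 and 8.63 CPM in control anti-CTLA-4 tumours. The groups overlapped through the highest control, replicate 5, and the test was not passed (log2 fold change 0.39, SE 0.19, adjusted p = 0.103). Without that library the log2 fold change was 0.52 (adjusted p = 0.0425), and in a fit with only these 2 groups it was 0.41 (adjusted p = 0.0371). Control IgG tumours averaged 3.82 ± 1.02 CPM. Of its ligands, Cd86 averaged 29.4 ± 3.38 CPM in LDHA-KD IgG tumours and 15.4 ± 1.76 CPM in control anti-CTLA-4 tumours (log2 fold change 0.93, SE 0.13, adjusted p = 1.33e-05), while Cd80 had a log2 fold change of 0.21 that did not pass (adjusted p = 0.33). Icosl, the ligand of ICOS, was higher (0.69, SE 0.14) and the B7 family members Cd276 (-0.56, SE 0.08) and Vtcn1 lower. Vtcn1 was below 1 CPM in these samples and lost its call when control anti-CTLA-4 replicate 5 was left out with replicate 3 (adjusted p = 0.325). Cd274, which encodes PD-L1, averaged 77.9 ± 7.81 CPM in LDHA-KD IgG tumours and 75.5 ± 30.9 CPM in control anti-CTLA-4 tumours and did not pass (adjusted p = 0.921).

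Relative to Cd3e of the same sample, none of 6 T cell genes passed. The log2 ratio of Foxp3 to Cd3e averaged 0.01 ± 0.32 in LDHA-KD IgG tumours and 0.27 ± 0.26 in control anti-CTLA-4 tumours, a difference of -0.26 (two-sided exact permutation test, 5 against 5, adjusted over the 6 ratios p = 0.381). With Cd3d or Cd3g in place of Cd3e the Foxp3 difference was -0.04 and -0.05. The differences were -0.13 for Cd4, 0.32 for Cd8a, -0.19 for Gzmb, -0.59 for Ctla4 and -0.64 for Ifng, with adjusted p from 0.381 to 0.532 in the same exact test. Without control anti-CTLA-4 replicates 3 and 5 the Cd8a difference was 0.04. The smallest unadjusted p this design allows is 0.00794, and the standard deviations of the ratios within a group, 0.17 to 0.84, were of the size of the differences.

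Activation and checkpoint receptors were mostly higher. Of 12 genes, 9 were higher and 2, Tigit and Havcr2, lower (median log2 fold change 0.96). The share lower lay under the 20.2% of all genes lower. Btla, an inhibitory receptor shared by T and B cells, averaged 5.96 ± 0.954 CPM in LDHA-KD IgG tumours and 1.97 ± 0.507 CPM in control anti-CTLA-4 tumours (log2 fold change 1.60, SE 0.22, adjusted p = 1.46e-05). Cd96 and Cd226, receptors for ligands of the nectin family on T and natural killer cells, had log2 changes of 1.40 (SE 0.24) and 1.20 (SE 0.23). Tigit, the inhibitory receptor for the same ligands, was lower, at 29.1 ± 10.3 CPM in LDHA-KD IgG tumours and 52.4 ± 8.10 CPM in control anti-CTLA-4 tumours (log2 fold change -0.85, SE 0.27, adjusted p = 0.016). Without control anti-CTLA-4 replicates 3 and 5 the adjusted p of Tigit was 0.0521. Which cells of the bulk tumour made the Tigit RNA was not tested. Pdcd1 (PD-1) did not pass (log2 fold change -0.10). The count of 9 higher genes was 7 without those replicates, and 5 without LDHA-KD IgG replicate 3 or 5 or control anti-CTLA-4 replicate 4.

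Cytotoxic genes had 7 of 16 higher and 2 lower, with a median of 0.82. The share lower lay under the 20.2% of all genes lower. Gzmb, the granzyme of activated killer cells (chr14:56258838-56262260, minus strand), stood at 64.2, 38.5, 68.8, 59.9 and 65.9 CPM in LDHA-KD IgG tumours, against 34.3, 30.7, 28.5, 34.2 and 44.3 CPM in control anti-CTLA-4 tumours. Only LDHA-KD IgG replicate 2 fell within the control range (log2 fold change 0.79, SE 0.18, adjusted p = 0.00189). Prf1, the pore-forming perforin, averaged 3.85 ± 0.575 CPM in LDHA-KD IgG tumours and 0.976 ± 0.299 CPM in control anti-CTLA-4 tumours (log2 fold change 1.97, SE 0.39, adjusted p = 0.000506), and the death ligand Fasl had a log2 change of 1.41 (SE 0.32). Gzme, a granzyme of the mouse cluster beside Gzmb, was lower (-1.76, SE 0.32, adjusted p = 0.000231), as was Eomes, a transcription factor of killer lymphocytes (-1.13, SE 0.14). Granzymes of that cluster are close paralogs, so the division of reads between them is uncertain.

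Ifng, the cytokine of type 1 T cells and natural killer cells, stood at 1.26, 1.08, 1.31, 1.20 and 1.58 CPM in LDHA-KD IgG tumours, against 0.941, 1.10, 0.311, 0.456 and 2.81 CPM in control anti-CTLA-4 tumours. The control samples spread on both sides of the knockdown samples, and the test was not passed (log2 fold change 0.21, SE 0.44, adjusted p = 0.73). The interferon-gamma response list had 1 of 20 genes higher and 0 lower, with a median of -0.09. The gene that passed was Ido1, which degrades tryptophan (1.15, SE 0.36, adjusted p = 0.0156). The knockdown samples ranged from 7.44 to 20.3 CPM, and control anti-CTLA-4 replicate 5 lay among them at 14.7 CPM. Cxcl9, a chemokine of that response, had a log2 fold change of 1.08 and did not pass (adjusted p = 0.0506). Of 15 type I interferon response genes, Ifit2 was higher and Usp18 lower (0.39 and -0.76).

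Natural killer cell genes, 8 receptors and the chemokine Xcl1, were higher without exception among those tested. All 9 passed, with no overlap between the groups for any of them and a median log2 fold change of 1.56. Klrk1 (NKG2D, chr6:129610323-129623864, minus strand), an activating receptor, stood at 11.6, 15.3, 7.19, 10.0 and 11.5 CPM in LDHA-KD IgG tumours, against 2.12, 3.70, 2.57, 2.65 and 4.07 CPM in control anti-CTLA-4 tumours (log2 fold change 1.88, SE 0.29, adjusted p = 4.66e-05). Control IgG tumours had 2.83, 3.34, 1.38 and 4.96 CPM, a range that takes in that of the anti-CTLA-4 controls. Xcl1, made by natural killer and CD8 T cells, had a log2 change of 2.19 (SE 0.28), and the Ly49 receptor Klra7 one of 2.52 (SE 0.42). Klra7 was below 1 CPM in every sample of these groups and belongs to a family of near-identical receptors, so its reads may be shared with relatives. Klra8 was too low to be tested.

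**Figure D2:**
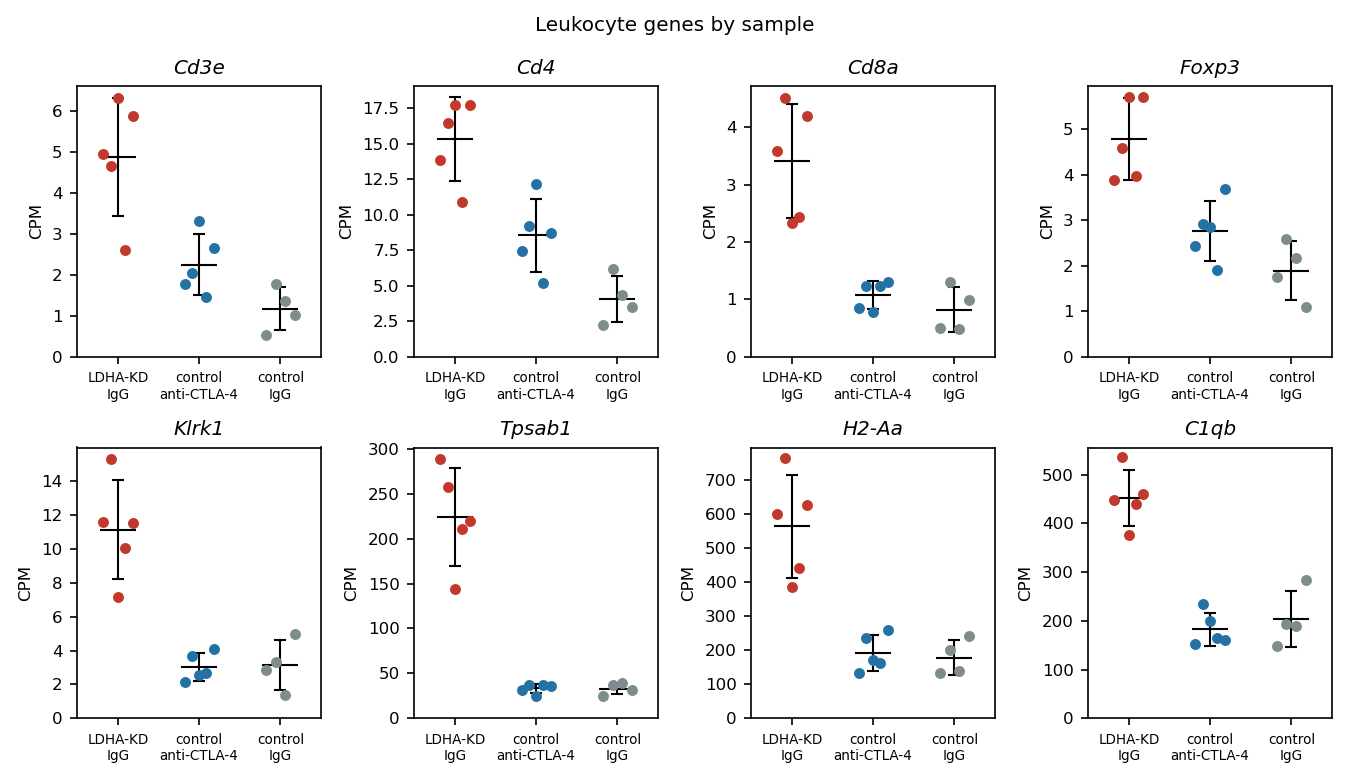
CPM of T cell (Cd3e, Cd4, Cd8a, Foxp3), natural killer (Klrk1), mast cell (Tpsab1), MHC class II (H2-Aa) and macrophage (C1qb) genes in each sample of LDHA-KD IgG (n = 5), control anti-CTLA-4 (n = 5) and control IgG tumours (n = 4), 1 point per sample with the mean and SD as lines. The Klrk1 and Tpsab1 samples of the knockdown group all lie above both control groups, while 1 knockdown sample of Cd3e lies among the control anti-CTLA-4 samples.

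Mast cell genes had the largest list median after the eosinophil genes, at 1.81, with 7 of 8 higher. Tpsab1, a mast cell tryptase (chr17:25343245-25345562, minus strand), stood at 288, 257, 144, 211 and 220.1 CPM in LDHA-KD IgG tumours, against 31.6, 36.6, 25.1, 37.3 and 36.2 CPM in control anti-CTLA-4 tumours. The lowest knockdown sample was several times the highest control (log2 fold change 2.75, SE 0.19, adjusted p = 5.19e-09). Control IgG tumours averaged 33.2 ± 6.54 CPM. The related tryptase Tpsb2 had a log2 change of 2.33 (SE 0.21) and the protease Cpa3 one of 2.44 (SE 0.32). Mrgprb1, a receptor of connective tissue mast cells in the mouse outside the list, ranged from 4.65 to 14.4 CPM in LDHA-KD IgG tumours and from 0.337 to 0.992 CPM in control anti-CTLA-4 tumours (log2 fold change 3.97, SE 0.43, adjusted p = 1.05e-06). Hdc, which makes histamine in mast cells and other myeloid cells, did not pass (0.13).

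Of 5 eosinophil genes tested, 4 were higher, with a median of 2.12, at low levels. Ccr3, the eotaxin receptor, averaged 3.49 ± 1.49 CPM in LDHA-KD IgG tumours and 0.723 ± 0.324 CPM in control anti-CTLA-4 tumours (log2 fold change 2.25, SE 0.50, adjusted p = 0.00142). Il5ra, the interleukin 5 receptor, was below 1 CPM in every sample of these groups, and 3 of 5 anti-CTLA-4 controls had 0 counts. The count of 4 was 2 in limma voom, without control anti-CTLA-4 replicates 3 and 5, and without LDHA-KD IgG replicate 3.

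Of 15 macrophage genes 12 were higher and 0 lower, with a median of 1.10. C1qb, a complement chain made by tissue macrophages (chr4:136880129-136886187, minus strand), stood at 448, 536, 377, 439.9 and 459.6 CPM in LDHA-KD IgG tumours, against 153, 235, 199, 166 and 160.3 CPM in control anti-CTLA-4 tumours. No samples overlapped (log2 fold change 1.31, SE 0.17, adjusted p = 1.09e-05). Lyz2, the lysozyme of myeloid cells, averaged 1729.8 ± 429 CPM in LDHA-KD IgG tumours and 454 ± 129.6 CPM in control anti-CTLA-4 tumours (log2 fold change 1.93, SE 0.34, adjusted p = 0.000196). Control IgG replicate 5, at 1354 CPM, lay within the knockdown range for Lyz2 while the other control IgG samples lay between 449 and 468 CPM. Cd163, Mertk and Maf did not pass.

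Of 14 neutrophil and suppressor myeloid genes 0 were higher and 3 lower, with a median of -0.57, and the share lower was near the background of 20.2%. Against control IgG, 4 were higher and 1 lower with the knockdown (median 0.32), where 16.8% of all genes were higher and 17.5% lower. The 3 were Mmp9, a gelatinase of neutrophils and tumour cells (-2.31, SE 0.32, adjusted p = 1.66e-05), Nos2, the inducible nitric oxide synthase (-1.84, SE 0.47, adjusted p = 0.00416), and Mmp8, the neutrophil collagenase (-1.08, SE 0.33, adjusted p = 0.0151). The calprotectin subunits S100a8 and S100a9 had log2 fold changes of -0.60 and -0.69 and did not pass (adjusted p = 0.108 and 0.0771). The count of lower genes was 5 in DESeq2 and 6 without control anti-CTLA-4 replicate 2. It was also 5 without replicate 2 of the LDHA-KD anti-CTLA-4 group, which is in neither group compared. That library enters through the choice of genes tested, the scaling and the shared estimate of the spread.

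MHC class II genes, through which antigen-presenting cells show peptides to CD4 T cells, were all higher: 9 of 9, with a median of 1.40 and no overlap in 8. H2-Aa (chr17:34282744-34287823, minus strand), the alpha chain of I-A, stood at 601, 764, 385, 442 and 628 CPM in LDHA-KD IgG tumours, against 133, 236, 170.1, 162 and 258 CPM in control anti-CTLA-4 tumours (log2 fold change 1.56, SE 0.25, adjusted p = 6.39e-05). H2-Eb1 (chr17:34305867-34316674, plus strand), the beta chain of I-E, averaged 238 ± 68.0 CPM in LDHA-KD IgG tumours, 79.9 ± 23.9 CPM in control anti-CTLA-4 tumours and 69.6 ± 17.7 CPM in control IgG tumours (log2 fold change of the first pair 1.58, SE 0.27, adjusted p = 0.00014). Ciita, the coactivator that class II promoters need, had a log2 change of 1.61 (SE 0.33, adjusted p = 0.000715). By contrast, 2 of 12 class I presentation genes, Nlrc5 and H2-Q7, were higher and 0 lower (median 0.08), and H2-K1 and B2m, a class I heavy chain and its light chain, had log2 fold changes of 0.00 and 0.05. The share of class I genes higher, 16.7%, lay under the 20.2% of all genes higher. H2-Q7 did not pass without control anti-CTLA-4 replicates 3 and 5 (adjusted p = 0.0807).

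Because the class II genes were higher together, the promoters of the pair with the largest fold changes among those with an entry are shown, from 250 bases before to 50 after the start of the gene. The sequences are those of RefSeq on GRCm38.p6, written in the direction of the gene (H2-Eb1 at chr17:34305617-34305916, plus strand, and H2-Aa at chr17:34287774-34288073, minus strand). Capitals mark CCAAT, the core of the Y box of class II promoters, or its reverse ATTGG.
H2-Eb1: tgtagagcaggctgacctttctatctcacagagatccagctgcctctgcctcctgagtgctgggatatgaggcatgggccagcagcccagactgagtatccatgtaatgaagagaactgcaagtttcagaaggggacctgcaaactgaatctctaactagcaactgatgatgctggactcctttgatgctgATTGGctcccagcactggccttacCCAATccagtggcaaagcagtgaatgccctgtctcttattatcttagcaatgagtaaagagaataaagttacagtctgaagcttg
H2-Aa: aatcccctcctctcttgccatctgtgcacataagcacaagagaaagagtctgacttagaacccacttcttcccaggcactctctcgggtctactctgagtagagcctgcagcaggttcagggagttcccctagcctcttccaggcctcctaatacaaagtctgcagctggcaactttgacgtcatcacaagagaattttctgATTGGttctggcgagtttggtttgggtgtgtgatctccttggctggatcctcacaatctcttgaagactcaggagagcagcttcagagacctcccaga
The match began 59 and 35 bases before the start of H2-Eb1 and 48 bases before that of H2-Aa. CCAAT on either strand was found in 5 of the 6 class II promoters with an entry (of 9 genes), against 37.9% of the 27025 genes with a promoter of that length. A match is a description of the letters and no measurement of binding.

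Of 11 dendritic cell genes 6 were higher and 2 lower (median 0.52), with the share lower near the background of 20.2%. Xcr1, the receptor for Xcl1 on cross-presenting dendritic cells, averaged 2.91 ± 1.03 CPM in LDHA-KD IgG tumours and 0.975 ± 0.290 CPM in control anti-CTLA-4 tumours (log2 fold change 1.58, SE 0.31, adjusted p = 0.000458). Siglech, a marker of plasmacytoid dendritic cells, had a log2 change of 1.61 (SE 0.30) and the growth factor receptor Flt3 one of 1.17 (SE 0.23). The transcription factor Zbtb46 (-0.50, SE 0.11, adjusted p = 0.00147) and Fscn1, an actin-bundling protein of mature dendritic cells, were lower. Of 6 B cell genes tested, Cd79a, Cd79b and Cd22 were higher (1 of them without control anti-CTLA-4 replicate 4), and the group means of all but Cd22 were below 1 CPM. Cd22 averaged 7.40 ± 1.56 CPM in LDHA-KD IgG tumours and 4.35 ± 0.940 CPM in control anti-CTLA-4 tumours and did not pass without control anti-CTLA-4 replicates 3 and 5 (adjusted p = 0.0662). Of 8 plasma cell genes, Ighm and Ighg1, which encode immunoglobulin heavy chains, were higher (1.33 and 2.37), and Sdc1, also a surface proteoglycan of epithelial cells, was lower (-1.48, SE 0.12). Chemokine ligands had 2 of 15 higher, Ccl2 and Ccl22, and 3 lower, with the share lower near the background of 20.2%. The 3 were Cxcl5 and Cxcl1, which attract neutrophils, and Cxcl13, which attracts B cells. None of these 3 passed without control anti-CTLA-4 replicates 3 and 5, and 1 did without replicate 5 alone. In fits with only the groups compared, 6 were lower.

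Glycolysis genes other than Ldha were lower in LDHA-KD IgG tumours. Of 18, 10 were lower and 0 higher, with a median log2 fold change of -0.38, and no samples overlapped for those 10. Without control anti-CTLA-4 replicates 3 and 5 the count was 6. Slc2a1, the glucose transporter GLUT1 (chr4:119108711-119137983, plus strand), stood at 228, 178, 247, 228 and 252.3 CPM in LDHA-KD IgG tumours, against 742, 324, 578, 405 and 508 CPM in control anti-CTLA-4 tumours (log2 fold change -1.17, SE 0.25, adjusted p = 0.000978). Control IgG tumours had 437, 389.5, 314 and 177 CPM and spanned the gap between the groups. Pgk1, the first ATP-yielding enzyme of the pathway (chrX:106187100-106203699, plus strand), averaged 264 ± 15.6 CPM in LDHA-KD IgG tumours, 490.3 ± 87.6 CPM in control anti-CTLA-4 tumours and 389 ± 109 CPM in control IgG tumours (log2 fold change of the first pair -0.89, SE 0.14, adjusted p = 4.79e-05).

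Aldoa, the aldolase, had a log2 change of -0.64 (SE 0.17, adjusted p = 0.00661), which became -0.55 with an adjusted p of 0.0511 without control anti-CTLA-4 replicates 3 and 5. Hk2, Pgam1 and Tpi1 had log2 fold changes of -0.57, -0.60 and -0.48, while Hk1, Eno1 and the regulators Pfkfb3 and Pfkfb4 did not pass. Against the control IgG group, which both single comparisons share, 3 of the 18 genes were lower with the knockdown, close to the 17.5% of all genes lower in that comparison. For anti-CTLA-4 none of the 18 passed, as 0 of all genes tested did, which does not show that they were unchanged. The median log2 fold changes of the list were -0.12 for the knockdown and 0.22 for anti-CTLA-4. The count of 3 lower genes was 5 in DESeq2 and 6 without control IgG replicate 5. For Slc2a1 these comparisons gave log2 changes of -0.54 (SE 0.26, adjusted p = 0.116) for LDHA-KD and 0.63 (SE 0.26, adjusted p = 0.601) for anti-CTLA-4, and neither passed.

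The hypoxia response list, made of genes induced by hypoxia-inducible factors, had 19 of 20 genes lower and 0 higher, with a median of -0.97. Egln3 was the exception (-0.16, adjusted p = 0.493). Ndrg1 (chr15:66929318-66969640, minus strand), a stress-induced gene of differentiated cells, stood at 689, 557, 635, 735 and 715 CPM in LDHA-KD IgG tumours, against 3142, 1335, 1977, 2073 and 2198 CPM in control anti-CTLA-4 tumours (log2 fold change -1.69, SE 0.21, adjusted p = 5.88e-06). Control IgG tumours had 1959.7, 1551, 1330.1 and 801 CPM, all above the knockdown samples. Adm, the vasodilator peptide adrenomedullin, had the largest fold change of the list (-2.14, SE 0.31, adjusted p = 2.43e-05), and Vegfa, the endothelial growth factor, averaged 117 ± 19.1 CPM in LDHA-KD IgG tumours and 362 ± 111 CPM in control anti-CTLA-4 tumours (-1.64, SE 0.27, adjusted p = 0.000109). Against control IgG, 13 of the 20 were lower with the knockdown (8 without control IgG replicate 1). The median log2 fold changes against control IgG were -0.60 for the knockdown and 0.42 for anti-CTLA-4.

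The core of the hypoxia response element, ACGTG on either strand, was found in 9 of the 14 list promoters with an entry, against 19.7% of all genes with one. The windows of Adm and Vegfa hold no match, which says only that these letters are not in them.

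**Figure D3:**
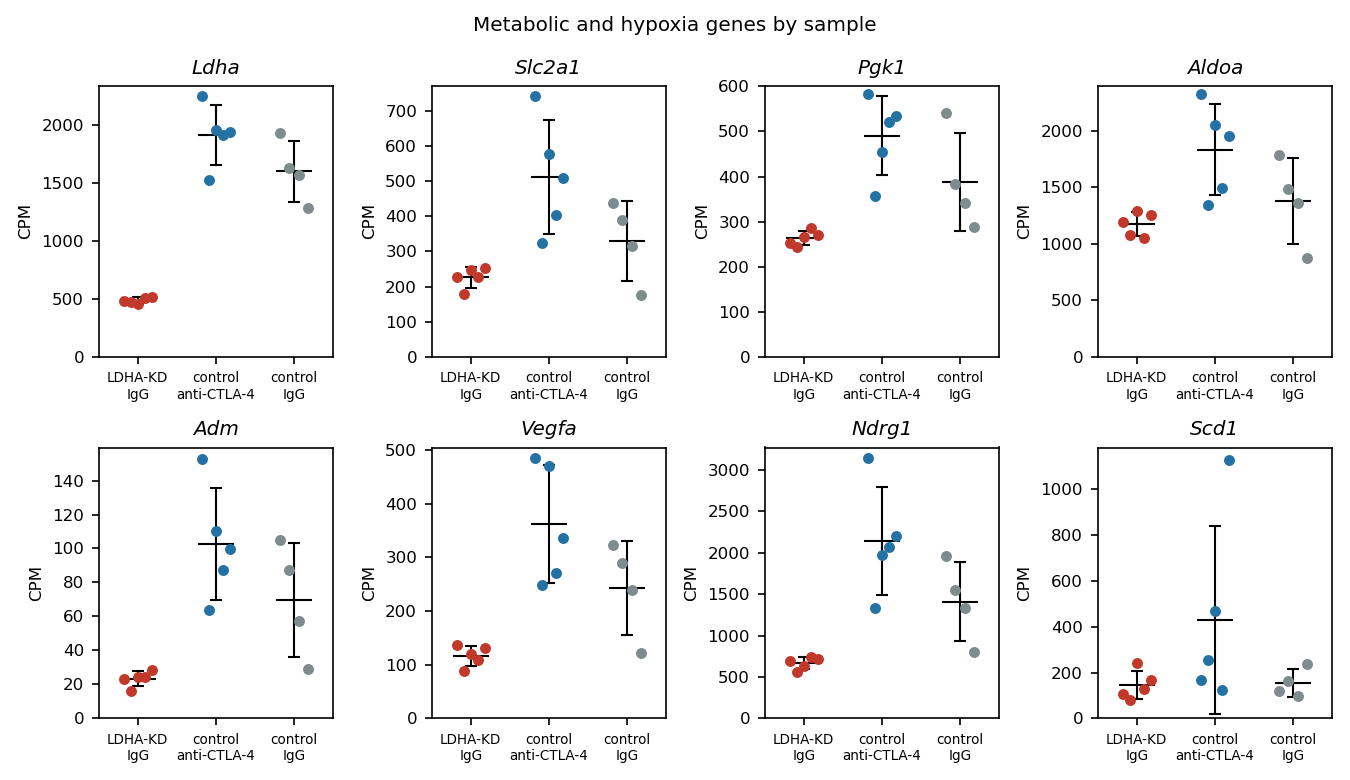
CPM of Ldha, glycolysis, hypoxia and lipid genes in each sample of LDHA-KD IgG (n = 5), control anti-CTLA-4 (n = 5) and control IgG tumours (n = 4), 1 point per sample with the mean and SD as lines. Ldha separates the knockdown samples from both control groups, while Scd1 is set by control anti-CTLA-4 replicate 5 at 1128 CPM.

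Lactate and pyruvate genes had 3 of 17 higher and 7 lower, Ldha included. The share higher lay under the 20.2% of all genes higher. The lactate transporters Slc16a1 (MCT1) and Slc16a7 (MCT2) were higher (0.58, SE 0.12, and 1.35, SE 0.23), with Slc16a1 at 597 ± 44.4 CPM in LDHA-KD IgG tumours and 399 ± 51.6 CPM in control anti-CTLA-4 tumours. Slc16a3 (MCT4), the exporter of glycolytic cells, did not pass (-0.31, adjusted p = 0.254). The kinases Pdk1 and Pdk3, which switch off pyruvate dehydrogenase, were lower (-0.65, SE 0.12, and -0.58, SE 0.09), and their relative Pdk2 was higher (0.47, SE 0.12). Pcx, which carboxylates pyruvate, passed with all libraries (-1.08) but not without control anti-CTLA-4 replicate 5 (adjusted p = 0.0562). Without control anti-CTLA-4 replicates 3 and 5 its log2 fold change was -0.31 (adjusted p = 0.321).

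In the TCA cycle 2 of 16 genes were lower and 0 higher: Idh3a (-0.37, SE 0.07, adjusted p = 0.00038) and Mdh2 (-0.29, SE 0.08, adjusted p = 0.00639, and 0.0567 without control anti-CTLA-4 replicates 3 and 5). That share, 12.5%, lay under the 20.2% of all genes lower. Of 26 nuclear genes of oxidative phosphorylation 1 was higher and 10 lower, with a median of -0.15. The count of lower genes was 4 without those replicates, 5 without LDHA-KD IgG replicate 1 or 5 or control anti-CTLA-4 replicate 1, and 6 without control anti-CTLA-4 replicate 4 or 5. Ndufa1, a complex I subunit, averaged 38.6 ± 0.925 CPM in LDHA-KD IgG tumours and 68.3 ± 7.31 CPM in control anti-CTLA-4 tumours (-0.82, SE 0.10, adjusted p = 5.12e-06). Of 8 mitochondrially encoded genes tested, mt-Co3 alone passed, through LDHA-KD IgG replicate 3 at 50.4 CPM, while each of the other 9 samples was at most 0.323 CPM. It did not pass in limma voom (log2 fold change 1.54, adjusted p = 0.353) and was too low to be tested without that sample.

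Stress and biosynthesis genes were mixed. Of 15 ATF4 and amino acid stress genes 9 were lower and 1 higher (median -0.45). Ddit3, the stress factor CHOP, averaged 20.1 ± 2.96 CPM in LDHA-KD IgG tumours and 41.6 ± 10.8 CPM in control anti-CTLA-4 tumours (-1.05, SE 0.21, adjusted p = 0.000545), and the pseudokinase Trib3 had a log2 change of -0.73 (SE 0.11). Of 16 cholesterol synthesis genes 5 were lower, among them Cyp51 (-0.72, SE 0.13), and 2 higher, among them Dhcr7, which completes the synthesis (0.79, SE 0.09, adjusted p = 1.11e-06). The desaturase Scd2 was lower (-0.80, SE 0.13, adjusted p = 5.55e-05). Scd1 passed with all libraries (-1.57, adjusted p = 0.0107) but was -0.34 (adjusted p = 0.463) without control anti-CTLA-4 replicates 3 and 5. Of 14 NRF2 and glutathione genes Gsta4, Hmox1 and Gclm were lower (Gsta4 alone without those replicates) and Txnrd1 higher (adjusted p = 0.0538 without them), and of 7 pentose phosphate genes Rpia and Rpe were lower (for Rpe, adjusted p = 0.0542 without them) and Pgd and the entry enzyme G6pdx higher (0.32, SE 0.07, for G6pdx). Of 11 glutamine and amino acid uptake genes 4 were lower, among them Gls2 (-0.56, SE 0.15), which releases glutamate from glutamine, and 1 higher. Fatty acid genes had 3 of 14 lower, with the mitochondrial dehydrogenase Acadl beside the desaturases (-0.73, SE 0.10), and the elongase Elovl6 higher (0.40, SE 0.10). The shares of lower genes in the fatty acid and NRF2 lists were near the 20.2% of all genes lower.

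Of 11 genes of adenosine, arginine and tryptophan metabolism tied to immune suppression, 6 were higher and 2 lower. The kynurenine enzymes Kynu and Kmo were higher (1.55, SE 0.23, and 1.22, SE 0.19), as were the tryptophan dioxygenases Ido2 (1.19, SE 0.23) and Tdo2 (0.92, SE 0.18). Nt5e (CD73), which makes adenosine from AMP, averaged 859 ± 98.2 CPM in LDHA-KD IgG tumours and 1569.7 ± 223 CPM in control anti-CTLA-4 tumours (-0.87, SE 0.11, adjusted p = 5.07e-06). The adenosine receptor Adora2b was also lower (-0.60, SE 0.22). Ada, which breaks adenosine down, and Entpd1 (CD39), which makes AMP from ATP, were higher (0.66, SE 0.10, and 0.48, SE 0.15).

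Genes of other cell types moved beside these programmes, and their part in the results was not tested. Of 12 endothelial genes 11 were lower and 1, Eng, higher; their summed level ran from 343 to 404 CPM in LDHA-KD IgG tumours, 473 to 526 CPM in control anti-CTLA-4 tumours and 432 to 583 CPM in control IgG tumours. Emcn, a sialomucin of capillaries and veins, had a log2 change of -1.37 (SE 0.13, adjusted p = 1.35e-07). Of 12 epithelial genes 6 were lower, among them Epcam (-2.09, SE 0.18) and Cldn4 (-2.74, SE 0.16), and the tight junction gene Cldn7 was higher (1.52, SE 0.10). Of 12 fibroblast and matrix genes 4 were lower, led by the contractile actin Acta2 (-1.24, SE 0.17), and Lum and Pdgfra were higher. Of 24 proliferation genes 12 were lower and 1, Ccne1, higher (median -0.23), with summed levels of 3080.1 to 3709 CPM in LDHA-KD IgG tumours and 3432 to 4134 CPM in control anti-CTLA-4 tumours.

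Red cell and fat genes also differed. Of 6 erythroid genes 5 were lower, and their sum ran from 41.7 to 87.8 CPM in LDHA-KD IgG tumours, 86.4 to 219.8 CPM in control anti-CTLA-4 tumours and 49.3 to 142 CPM in control IgG tumours. Of 7 adipocyte genes 4 were lower, with sums of 64.7 to 140.5 CPM in LDHA-KD IgG tumours, 99.1 to 810.3 CPM in control anti-CTLA-4 tumours and 85.9 to 190.4 CPM in control IgG tumours. That count was 1 without control anti-CTLA-4 replicate 5, without replicates 3 and 5, and in limma voom, and 2 without LDHA-KD IgG replicate 1, 2, 4 or 5. Milk protein genes summed to 6.08 to 27.3 CPM in LDHA-KD IgG tumours, 1.21 to 113.7 CPM in control anti-CTLA-4 tumours and 2.31 to 11.5 CPM in control IgG tumours, with 0 of 5 past the test. Skeletal muscle genes had 0 of 6 past the test, and Krt10 was the 1 of 3 skin genes that was lower.

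The largest changes were taken from genes past the test, list members included, with all 25 sample pairs agreeing and a mean log2 CPM of at least 1. Predicted genes and pseudogenes were left out by name. Whether the genes share a pathway was not tested. Gnao1, a G protein alpha subunit best known from neurons (chr8:93809966-93969388, plus strand), stood at 14.0, 16.0, 9.11, 12.2 and 12.8 CPM in LDHA-KD IgG tumours, against 0.50, 0.983, 0.182, 0.590 and 0.573 CPM in control anti-CTLA-4 tumours (log2 fold change 4.48, SE 0.28, adjusted p = 1.37e-09). Control IgG tumours averaged 0.755 ± 0.161 CPM. Ibsp, a bone matrix sialoprotein, followed (4.02, SE 0.25), then Mrgprb1, Tnip3, an inhibitor of NF-kB signalling (3.54, SE 0.15), the TNF receptor family member Tnfrsf19 (3.40), the cell surface receptor Cdon (3.14), the receptor phosphatase Ptpru (3.08) and the urea transporter Slc14a1 (3.05).

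The largest decreases included secreted signals and epithelial adhesion genes. Rspo3, an amplifier of WNT signalling (chr10:29452416-29535867, minus strand), stood at 1.21, 1.36, 0.856, 1.08 and 0.735 CPM in LDHA-KD IgG tumours, against 14.1, 6.13, 11.001, 10.5 and 16.1 CPM in control anti-CTLA-4 tumours (log2 fold change -3.45, SE 0.33, adjusted p = 1.97e-07). Lama3, which encodes a laminin of basement membranes under epithelia, averaged 44.2 ± 4.62 CPM in LDHA-KD IgG tumours and 419.6 ± 55.2 CPM in control anti-CTLA-4 tumours (-3.25, SE 0.21). Il1a, the alarm cytokine interleukin 1 alpha, ranged from 9.88 to 13.9 CPM in LDHA-KD IgG tumours and from 43.4 to 165 CPM in control anti-CTLA-4 tumours (-3.14, SE 0.43). Ube2ql1 (-3.22), the FGF-binding protein Fgfbp1 (-3.06), the protease Prss12 (-3.03), the lymphatic growth factor Vegfc (-2.80) and Cldn4 completed the 8.

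**Figure D4:**
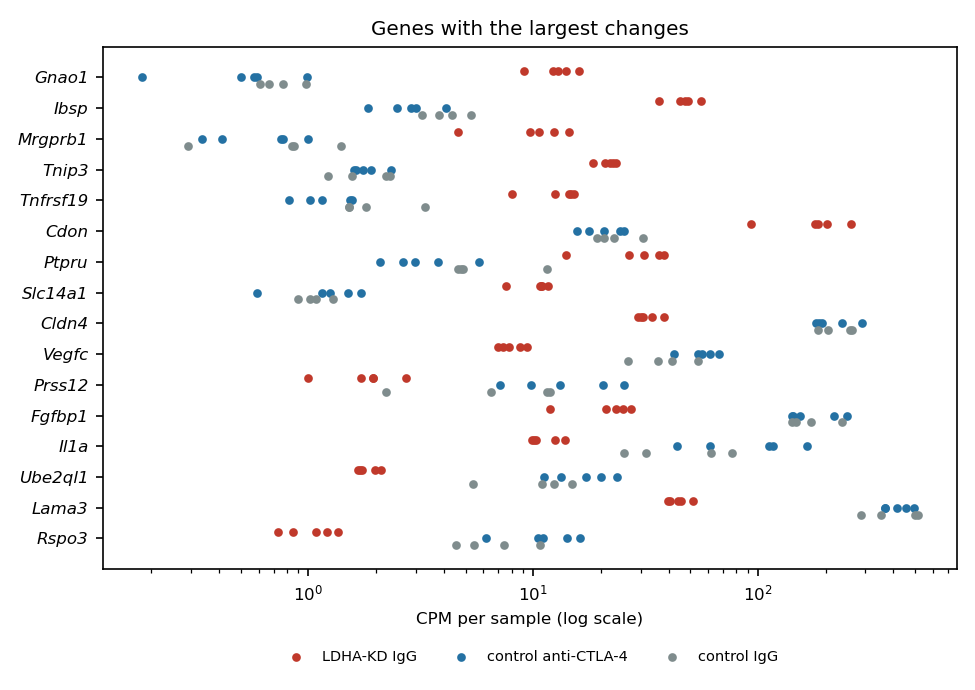
CPM on a log scale of the 8 genes with the largest increases and the 8 with the largest decreases, 1 point per sample of LDHA-KD IgG (n = 5), control anti-CTLA-4 (n = 5) and control IgG tumours (n = 4), ordered by log2 fold change. Genes were chosen with all 25 sample pairs agreeing and a mean log2 CPM of at least 1. The LDHA-KD IgG points therefore lie apart from the control anti-CTLA-4 points by that choice. Gnao1 shows the widest gap, with 9.11 CPM as the lowest knockdown value and 0.983 CPM as the highest in control anti-CTLA-4.

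The single comparisons can be set beside the direct one, with which they share samples and, with each other, the control IgG samples. Gnao1 had log2 changes of 4.08 (SE 0.30) for LDHA-KD and -0.40 (SE 0.31) for anti-CTLA-4 against control IgG. For Il1a the values were -2.11 (SE 0.43) and 1.03 (SE 0.43), and the second did not pass (adjusted p = 0.601). The direct difference is by construction the first value minus the second.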

How the data were processed

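The authors deposited raw counts for each gene and sample, made with HTSeq 0.5.3 on build mm10, per the submitters' processing notes, which also name Picard 1.124. The sources used here do not give the aligner, annotation or strand setting, so overlapping genes and close paralogs may share reads. Rows of unassigned reads were dropped (8.42% to 13.8% of records fell outside genes). All 19 samples entered a single edgeR 4.0.16 model in R 4.3.3 with 1 coefficient per group, after filterByExpr on the group and TMM scaling. The quasi-likelihood F test was adjusted by Benjamini-Hochberg over the 16763 genes tested (threshold 0.05). A floor of 3 counts was 0.0693 to 0.0944 CPM, for counting error only. DESeq2 1.42.0 and limma 3.58.1 (voom) were alternatives, as were other scalings, no filter, fits with 2 groups, a replicate block and leaving out libraries. T cell gene ratios to Cd3e used log2 CPM after adding 0.5 and a two-sided exact permutation test. The procedure was tested on simulated data.

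The groups compared, the gene lists and the rule for named genes were chosen with earlier results of these data known. Named genes were 9 fixed genes, the 8 largest changes in each direction with all 25 sample pairs agreeing and a mean log2 CPM of at least 1, and per list the 3 called members with the largest change in the main direction and 1 in the other (2 for other cell types). Further list members are named as examples, chosen after their values were seen. Some list members are not reported here. No pair of libraries was a copy (lowest chi-square per gene 5.40). Coordinates are GENCODE M21 on GRCm38, matched for 16708 of the genes tested.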

Additional observations from a re-analysis of the deposited data

Results flagged for a closer look

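Among 408 groups of samples examined for the named genes, 22 had a highest or lowest sample far from the others by Dixon's gap criterion. Chance gives about 1 in 20. Values are CPM, with the group median after each.

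In LDHA-KD IgG tumours, replicate 3 stood apart for Slc14a1 (7.58, median 10.9), Cox5a (75.6, median 68.0), Shmt2 (121, median 95.0) and mt-Co3 (50.4, median 0.272), and replicate 2 for Cxcl1 (20.2, median 45.7). The mt-Co3 call of the report rests on that sample.

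In control anti-CTLA-4 tumours, replicate 5 stood apart for Ctla4 (8.63, median 6.17), Ido1 (14.7, median 5.06), Xcr1 (1.48, median 0.852), Cd79b (1.03, median 0.445) and Vtcn1 (0.694, median 0.234), all immune genes at their group's highest value. Replicate 4 stood apart for Rpe (99.1, median 79.5) and replicate 2 for Ndufa1 (55.7, median 70.4).

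In control IgG tumours, replicate 5 stood apart for Lyz2 (1354, median 460.0), Cd86 (21.7, median 14.2), Kynu (2.17, median 1.22), Fabp4 (103, median 58.9), Cfd (52.9, median 23.9), Tnfrsf19 (3.31, median 1.66) and Ptpru (11.5, median 4.83). Replicate 4 stood apart for Ifng (0.298, median 0.728) and Vtcn1 (0.271, median 0.152), and replicate 1 for Cox5a (119, median 85.5).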

How the results depend on the processing

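With 1 library left out at a time, 2947 to 3642 genes were higher and 2931 to 3531 lower in LDHA-KD IgG than in control anti-CTLA-4 tumours. LDHA-KD against control IgG gave 4710 to 6023 and anti-CTLA-4 against control IgG 0 to 0 (11 with DESeq2 and all libraries). Without control anti-CTLA-4 replicates 3 and 5 the direct comparison gave 2627 higher and 2639 lower. Of the named genes, 113 kept their call without both and 23 lost it: Gzmc, Tigit, Vtcn1, Cd22, Prg2, H2-Q7, Cxcl5, Cxcl13, Cxcl1, Aldoa, Pcx, Rpe, Mdh2, Ndufv2, Cox6c, Got1, Slc38a1, Scd1, Hmox1, Gclm, Txnrd1, Rrm2 and Cfd. No scaling moved the median of all genes by more than 0.016. Of 136 named genes, 110 were tested and kept their call with each of the 19 libraries left out, and mt-Co3 was too low to be tested in 4 of these fits. The calls of Hmox1, Vtcn1, Pgd, Rpe, Prg2, Cd22, H2-Q7, Cxcl1, Cxcl5, Ndufv2, Cox6c, Slc38a1, Gclm, Txnrd1, Cd79b, Ifit2, Ccl22, Shmt2, Cfd, Scd1 and Pcx were lost in at least 1 of these, as was that of Foxp3. Csn3 passed without control anti-CTLA-4 replicate 2 or 4 (adjusted p = 0.0349 and 0.0115). Ifng ranged from -0.03 to 0.87 in log2 fold change, with the lowest value (adjusted p of 0.959) in the fit that left out replicate 3 of control anti-CTLA-4, and the cause was not tested.

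The differences in log2 ratio to Cd3e ranged with 1 library left out from -0.39 to -0.18 for Foxp3, -0.20 to -0.07 for Cd4, 0.12 to 0.53 for Cd8a, -0.39 to -0.05 for Gzmb, -0.82 to -0.49 for Ctla4 and -0.97 to -0.40 for Ifng. Against Cd3d and Cd3g they were -0.04 and -0.05 for Foxp3, 0.09 and 0.08 for Cd4, 0.54 and 0.53 for Cd8a, 0.02 and 0.02 for Gzmb, -0.37 and -0.38 for Ctla4 and -0.43 with either for Ifng; the cause was not tested.

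With the replicate number as a block, 3601 genes were higher and 3646 lower. Samples of the same number in both groups correlated by 2e-04, 0.233, 0.321, 0.134 and 0.125 in their deviations from the group means. The main fit took the numbers as sample names and not as pairs. LDHA-KD IgG replicates 2, 3, 4 and 5 each correlated best with their own number and replicate 1 with number 4, a hint from the data and not from the design. Under the block Ctla4 passed (adjusted p = 0.0412), mt-Co3 did not (0.0865), and no other named gene changed its call.

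Fold changes of genes below 1 CPM in both groups, such as Vtcn1 and Il5ra, rest on few counts.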
